A study of Mus musculus with 8 samples.

Results

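The kinases of the mitogen-activated protein (MAP) kinase cascade were examined in an experiment that asked which mRNAs associate with CPEB2 in mouse mammary epithelial cells. The members are the 3' UTR rows of the authors' deposited table whose gene symbol begins with Mapk, Map2k, Map3k or Map4k and ends in a number. The rule used names and no measured value, and it found 40 of 20586 rows. They were 13 MAP kinases, 7 MAP2K genes, 15 MAP3K genes and 5 MAP4K genes, with 1 row each. All 40 symbols matched RefSeq (GRCm38.p6), and all 40 rows lay within or across the RefSeq gene of that name.

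The cascade passes a signal through a chain of kinases. MAP4K and MAP3K enzymes respond to receptors and stress, MAP3K enzymes phosphorylate MAP2K enzymes, and each MAP2K activates a narrow choice of MAP kinases. The main branches end in the ERK kinases, which follow growth factor receptors and RAS, and in the JNK and p38 kinases, which follow stress and inflammatory signals. In the mammary gland, ERK signalling downstream of the EGF receptor is known for its role in ductal growth. CPEB2 binds cytoplasmic polyadenylation elements in 3' UTRs and regulates the translation of the mRNAs that carry them.

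Cells came from wild-type mice (WT) and mice with a Cpeb2 knockout (KO), strain C57BL/6J 129 on every label, with no treatment, and were used fresh after an epithelial enrichment step. The sources used here do not state an age, the number of animals in a preparation or the deleted part of Cpeb2. RNA recovered with an antibody against CPEB2 (IP) and RNA of the starting material (Input) made 4 groups of 2 libraries, an IP and an Input group for each genotype. The KO immunoprecipitate measures recovery with the same antibody from knockout cells. Only the Inputs were purified for poly(A) RNA, per the labels, so that every IP to Input difference below also holds that difference in preparation. No label says that the preparations were from separate animals, and the p-values may therefore measure technical spread.

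The deposited table gives 1 log2 value per group, a log2 of normalized counts with 1 added, and no spread around it. For each row it also gives the interaction, which is the log2 IP over Input of WT less that of KO, with a standard error (SE) from the authors' DESeq2 fit. Positive values stand for a stronger recovery over Input from WT cells. The authors adjusted p for 5327 rows, whose mean normalized counts began at 42.9, and these rows are called tested below. Depth per library is unknown here, and precision is given by the SE. The Cpeb2 row cannot check the genotype, since its authors' Input value was 6.11 in WT and 5.98 in KO. Its interaction was 2.12 ± 0.45 (SE; adjusted p = 0.00119 by the Wald test) in the authors' deposited table. This row is that of the knocked-out gene itself, and what lay behind its interaction was not tested.

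Markers of several cell types were present in the Inputs. The authors' WT Input values ran from 5.79 to 8.76 over 5 luminal markers, including Epcam and Cdh1, and from 5.93 to 7.78 over 5 basal markers. They ran from 7.53 to 9.48 over 5 fibroblast markers and from 5.80 to 9.20 over 5 endothelial markers, so the fraction was not epithelial alone. In bulk samples, fewer cells of a type and less RNA per cell cannot be told apart. Endothelial markers moved with the comparison: all 5 had an interaction above 0 in the authors' deposited table, and Flt1 and Cdh5 passed the test. Of all tested rows 65.1% were above 0 and 2.25% passed with a higher value in WT. Of the luminal markers 2 of 5 were above 0, of the basal markers 1 of 5 and of the fibroblast markers 1 of 5, and none of these passed. The summed level of the endothelial markers was 10.99 (WT) and 9.94 (KO) in IP against Inputs of 10.32 and 10.53 of WT and KO (log2 of the authors' values, summed as counts). None of the 5 was at 0. The leukocyte markers moved the other way in IP, with a summed level of 6.44 in WT and 7.56 in KO, against 7.22 and 7.75 in the Inputs. The luminal progenitor markers summed to 10.24 in WT and 9.50 in KO IP, against Inputs of 9.17 and 8.93, and 2 of 4 had an interaction above 0. The fibroblast markers summed to 11.01 in WT and 11.48 in KO IP, against Inputs of 11.16 and 11.39. The part of any of these cell types in the kinases' values was not tested.

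No tested kinase of the cascade passed the authors' test for a recovery that differed between WT and KO cells. Of the 40 members 17 were tested, and 0 of 17 passed an adjusted p of 0.05 in either direction, against 2.25% of all tested rows higher in WT and 0% lower (Wald test). At an adjusted p of 0.10 the members' count was also 0, against 3.17% of rows higher and 0% lower. At an unadjusted p of 0.05 there were 2 members higher in WT, Map4k3 and Map4k5, and 0 lower, against 12.5% and 1.09% of all tested rows. That share of 11.8% lay next to the background share. The median log2 interaction of the 17 members was 0.41, and that of all tested rows was 0.23. There were 12 members above 0 and 5 below, or 70.6% above 0, against 65.1% of all tested rows. These figures hold for the tested members. Over all 40 members the median was -0.036, against 0.05 over all rows with a p-value, and over the 33 members whose mean normalized count reached 10 it was 0.14, against 0.12.

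The intervals show the range of differences compatible with each estimate before any adjustment. They do not show how large a difference the adjusted test could have detected. The authors' standard errors of the 17 members ran from 0.39 to 0.57, with a median of 0.44, against a median of 0.49 over all tested rows. The 95% interval (normal approximation from the SE) held 0 for 15 members, and lay wholly above 0 for Map4k3 and Map4k5 before any adjustment. For 15 of the 17 its upper end was below 1.74, the median interaction of the rows that passed, and the exceptions were the same pair. Those rows were selected by the same test, and the smallest interaction among them was 1.10. For 5 members the interval ended below 1, a 2-fold difference, and for 2 of these, Map3k12 and Map2k7, it lay within 1 of 0 on both sides. For every member outside those 5 the interval reached 1.10. Their intervals therefore do not exclude an interaction as large as some that passed. The Map3k12 row shares 1534 of its 2432 bases with the 3' UTR of Pcbp2 on the opposite strand, so the counts behind its interval are uncertain.

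**Figure D1:**
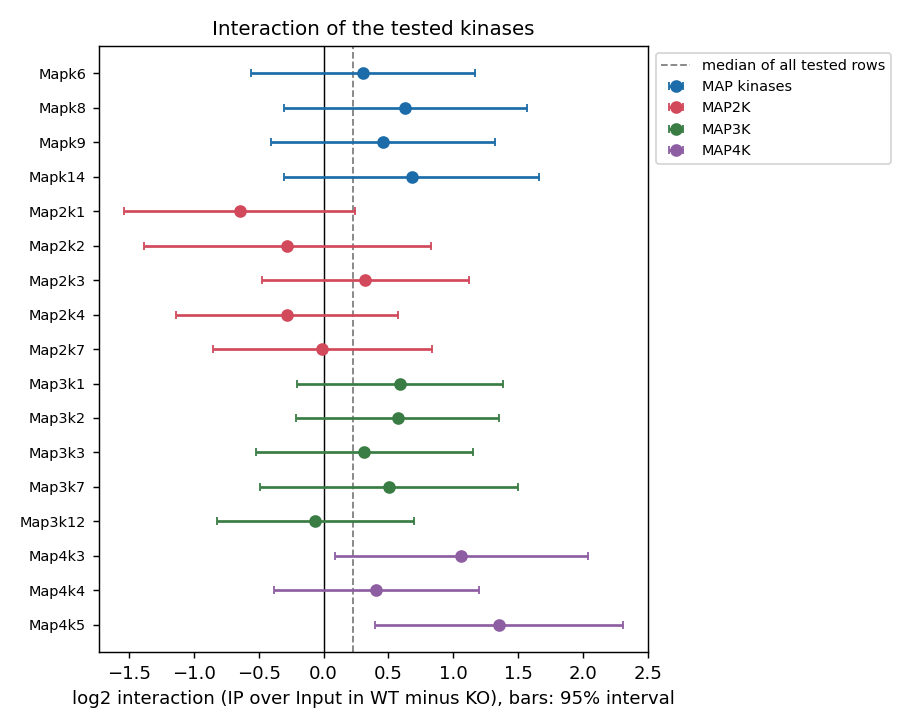
The log2 interaction of the 17 tested kinases (x axis), with bars for the 95% interval and colours for the 4 tiers; the dashed line is the median of all tested rows, 0.23. Map4k5 at 1.36 and Map4k3 at 1.06 lie farthest to the right, and 4 of the 5 MAP2K kinases lie below 0.

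The MAP4K kinases stand at the top of the cascade, and 2 of them had the highest interactions of the 17 tested members. Map4k5 encodes a germinal centre kinase that acts towards the JNK branch, and its 3' UTR of 1514 bases lies on chromosome 12, 69803750 to 69805263 (mm10). The authors' deposited table gave 7.38 for WT IP, 6.04 for WT Input, 5.97 for KO IP and 5.99 for KO Input. The WT IP stood apart, and the other groups lay within 0.07 of each other. The interaction was 1.36 ± 0.49 (SE) in the authors' deposited table, a 2.56-fold difference with an interval from 1.32-fold to 4.97-fold, and it did not pass (Wald test, adjusted p = 0.139). It ranked 225 among the 5327 tested rows.

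Map4k3, a kinase of the same group that is also known to link amino acids to mTORC1, lies on chromosome 17, 80580512 to 80581847. The authors' values were 7.52 (WT) and 6.65 (KO) in IP, against Inputs of 5.09 and 5.27. Both immunoprecipitates were thus above both Inputs, and the WT value was the higher of the pair. The authors' deposited table gave it an interaction of 1.06 ± 0.50 (SE; adjusted p = 0.311 by the Wald test). Map4k4, a kinase of cell migration and JNK signalling, showed another arrangement, with authors' values of 7.71 (WT) and 7.65 (KO) in IP below Inputs of 8.56 and 8.89. Its interaction was 0.41 ± 0.40 (SE; adjusted p = 0.721 by the Wald test) in the authors' deposited table. Of that value, 0.06 came from a higher IP in WT and the rest from a lower Input.

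Below the count filter, Map4k2 had an interaction of -0.30 ± 0.61 (SE) in the authors' deposited table and a mean normalized count of 42.1, just under the level at which p was adjusted. Map4k1, which is known as a kinase of blood cells, had a mean normalized count of 0.65 there and 0 in KO Input. At such counts no direction can be read.

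Among the MAP3K kinases, 3 of the 5 tested were recovered above Input in both genotypes. Map3k2, a kinase that can activate the JNK and ERK5 branches, has the longest 3' UTR of the family, 8403 bases on chromosome 18, 32228349 to 32236751. The authors' values were 9.46 (WT) and 9.26 (KO) in IP, against 7.10 in WT Input and 7.43 in KO Input. The immunoprecipitates of both genotypes were far above Input and close to each other. The interaction was 0.57 ± 0.40 (SE; adjusted p = 0.578 by the Wald test) in the authors' deposited table. Map3k7, which encodes the TGF-beta activated kinase TAK1, was alike in form, with authors' values of 7.30 and 6.88 in IP and 5.72 and 5.79 in Input (WT and KO), and an interaction of 0.51 ± 0.51 (SE; adjusted p = 0.723). Map3k1, a kinase upstream of JNK, had authors' values of 8.80 and 8.46 in IP and 7.70 and 7.91 in Input, and an interaction of 0.59 ± 0.41 (SE; adjusted p = 0.571). In these 3 genes the IP of the knockout was also above its Input, by 1.83 for Map3k2, 1.09 for Map3k7 and 0.55 for Map3k1.

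Map3k3, a close relative of Map3k2, went the other way. Its authors' values in IP, 6.76 in WT and 6.70 in KO, were below 7.39 and 7.65 in the Inputs, and its interaction was 0.31 ± 0.43 (SE; adjusted p = 0.812 by the Wald test) in the authors' deposited table. Map3k12, which encodes the dual leucine zipper kinase, was nearly level, at 7.76 and 7.89 in IP and 7.96 and 8.02 in Input in the authors' deposited table. Its interaction of -0.06 ± 0.39 there had the smallest SE of the 17. That row overlaps the 3' UTR of Pcbp2 on the opposite strand over 1534 of its 2432 bases, and the authors' values of Pcbp2 were almost the same, 7.67 and 7.69 in IP and 7.93 and 7.98 in Input. No source used here states whether counting used strand, so the counts of both genes are uncertain where they overlap.

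The other 10 MAP3K rows were below the count filter. Of these, Map3k8, a kinase that activates the ERK branch in inflammatory signalling, had the highest mean normalized count, 36.1, and authors' values of 5.68 and 5.90 in IP above 4.17 and 3.97 in Input (WT and KO). Map3k13, the relative of Map3k12, had the largest positive interaction of the 10, 1.02 ± 0.88 (SE; unadjusted p = 0.248) in the authors' deposited table. There it came from Input, at 3.71 in WT and 4.73 in KO, while the IP values of 4.39 and 4.33 differed by 0.06. Map3k15 stood high in IP, at 5.26 and 4.97 against 3.04 and 3.32 in the authors' deposited table. All 352 bases of its row also belong to the 3' UTR of Pdha1 on the opposite strand, whose authors' values were 7.46 and 7.44 in IP and 6.93 and 6.81 in Input, so that the Map3k15 values cannot be assigned to that gene. Map3k14, the kinase of non-canonical NF-kB signalling, had 0.41 ± 0.97 (SE) in the authors' deposited table, and Map3k5, a kinase of oxidative stress, had 0.14 ± 0.72. For Map3k9 and Map3k11, which are mixed-lineage kinases, the table gave -0.69 ± 0.69 and -0.43 ± 0.74 in the authors' fit. The rest, Map3k4, Map3k6 and Map3k10, had mean normalized counts between 2.06 and 16.3.

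The MAP2K kinases were the tier in which most interactions lay below 0, at 4 of 5 tested, with a median of -0.28. Of all tested rows 65.1% were above 0, with a median of 0.23. The running median of all tested rows at the same length was 0.01 for Map2k1, -0.002 for Map2k2 and -0.009 for Map2k3. It was 0.38 for Map2k4 and 0.23 for Map2k7. Differences from it were -0.66 for Map2k1, -0.28 for Map2k2, -0.67 for Map2k4 and -0.24 for Map2k7, against 0.33 for Map2k3. Map2k1, which activates ERK, is on chromosome 9, 64185770 to 64186684. The authors' values were 6.70 (WT) and 7.30 (KO) in IP, against Inputs of 6.18 and 6.12. Both immunoprecipitates exceeded Input, and the KO value was the higher. The interaction of -0.65 ± 0.46 (SE; adjusted p = 0.579 by the Wald test) in the authors' deposited table was the lowest of the 17 members, with an interval from -1.54 to 0.24. Map2k2, the paralogue that also activates ERK, had the deepest depletion of the family. The authors' values were 4.33 (WT) and 4.75 (KO) in IP below Inputs of 7.24 and 7.42, differences of -2.91 and -2.67. No more than 1.28% of all tested rows had a lower IP to Input difference in WT. Its interaction was -0.28 ± 0.57 (SE; adjusted p = 0.883) in the authors' deposited table, so this depletion did not differ detectably between genotypes.

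Both kinases that activate JNK were tested. Map2k4 had authors' values of 7.02 (WT) and 7.34 (KO) in IP, above Inputs of 6.57 and 6.61, and an interaction of -0.28 ± 0.44 (SE; adjusted p = 0.841 by the Wald test). For Map2k7 all 4 authors' values lay between 6.80 and 7.10, and the interaction of -0.01 ± 0.43 (SE; adjusted p = 0.995) was the nearest to 0 of the family. Map2k3, an activator of p38, had authors' values of 7.06 and 6.84 in IP below 7.52 and 7.62 in Input, and the one positive interaction of the tier, 0.32 ± 0.41 (SE; adjusted p = 0.790). Map2k5, which activates ERK5, and Map2k6, the other activator of p38, had mean normalized counts of 7.71 and 0.40 in the authors' deposited table and were not tested.

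At the bottom of the cascade, the 4 MAP kinases tested all had interactions above 0, from 0.30 to 0.68, and none passed. Of all tested rows 65.1% were above 0. The differences from the running median of all tested rows at their own length were 0.45 for Mapk14, 0.23 for Mapk6, 0.11 for Mapk8 and -0.02 for Mapk9. Mapk14, the main p38 kinase, is on chromosome 17, 28746339 to 28748404, with authors' values of 7.01 in WT IP, 6.45 in KO IP, and 5.66 and 5.78 in the Inputs. Its interaction was 0.68 ± 0.50 (SE; adjusted p = 0.599 by the Wald test) in the authors' deposited table. The JNK kinases Mapk8 and Mapk9 differed in their recovery. Mapk9 had authors' values of 7.58 and 7.18 in IP above 6.14 and 6.18 in Input, and Mapk8 had 7.08 and 6.61 in IP beside 6.93 and 7.15 in Input. For Mapk8 the WT IP was thus above its Input and the KO IP below, and its interaction was 0.63 ± 0.48 (SE; adjusted p = 0.613) against 0.46 ± 0.44 (SE; adjusted p = 0.709) for Mapk9 in the authors' deposited table. Mapk6, an atypical MAP kinase, had 0.30 ± 0.44 there (Wald test, adjusted p = 0.826), with its 4 values between 7.28 and 7.56.

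The other MAP kinases lay below the count filter. The row of Mapk3, an ERK kinase, was the shortest of the family, 79 bases, with a mean normalized count of 14.7 and authors' values of 4.16 (IP) and 4.29 (Input) in WT, and 3.26 (IP) and 2.81 (Input) in KO. Its KO values were both below its WT values, and its SE of 2.06 was the largest among members that reached a mean of 10 normalized counts. Mapk7, which encodes ERK5, had the smallest unadjusted p of the rows below the filter, -1.67 ± 1.13 (SE; unadjusted p = 0.14) in the authors' deposited table, and 89 of its 305 bases overlap the 3' UTR of Mfap4 on the opposite strand. The p38 genes Mapk11, Mapk12 and Mapk13, the JNK gene Mapk10 and the atypical Mapk4 and Mapk15 had mean normalized counts between 2.52 and 22.0. Over all 23 members without an adjusted p, unadjusted p-values ran from 0.14 to 0.956 and 7 interactions were above 0.

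**Figure D2:**
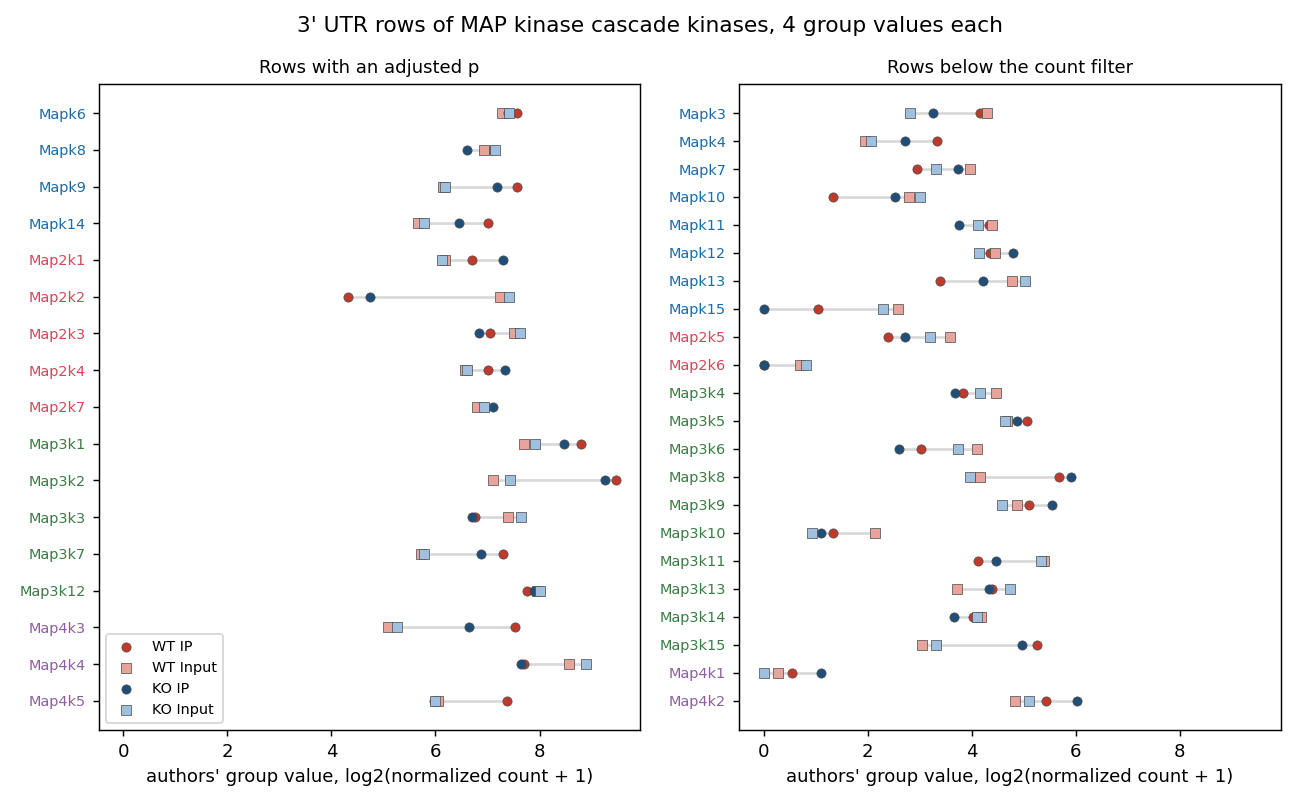
The authors' value of each group (x axis, log2 of the normalized count plus 1) for 39 kinases, with circles for IP and squares for Input, red for WT and blue for KO. In the left panel the 2 Inputs of a gene lie within 0.34 of each other, and circles lie to the right of the squares for genes such as Map3k2 and Map4k3 and far to the left for Map2k2.

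Recovery over Input was shared by both genotypes in most of the tested kinases. Of the 17, 9 had an IP value above Input in WT and in KO and 5 had one below in both, while Map4k5, Mapk6 and Mapk8 were above in WT alone. Over all tested rows 49.7% were above Input in both genotypes, and over the members 52.9%. In WT, 7 of 17 members reached an IP to Input difference of at least 1 (Map3k1, Map3k2, Map3k7, Map4k3, Map4k5, Mapk9 and Mapk14), against 28.1% of rows. Map2k2 alone reached it downward, against 15.7% of rows. In KO, 4 members reached it upward (Map2k1, Map3k2, Map3k7 and Map4k3) and 2 downward (Map2k2 and Map4k4), against 17.0% of rows each way. These counts rest on group values that have no error, and were not tested. The median authors' difference of the 17 members was 0.45 in WT and 0.17 in KO, and that of all tested rows was 0.29 and 0.15.

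**Figure D3:**
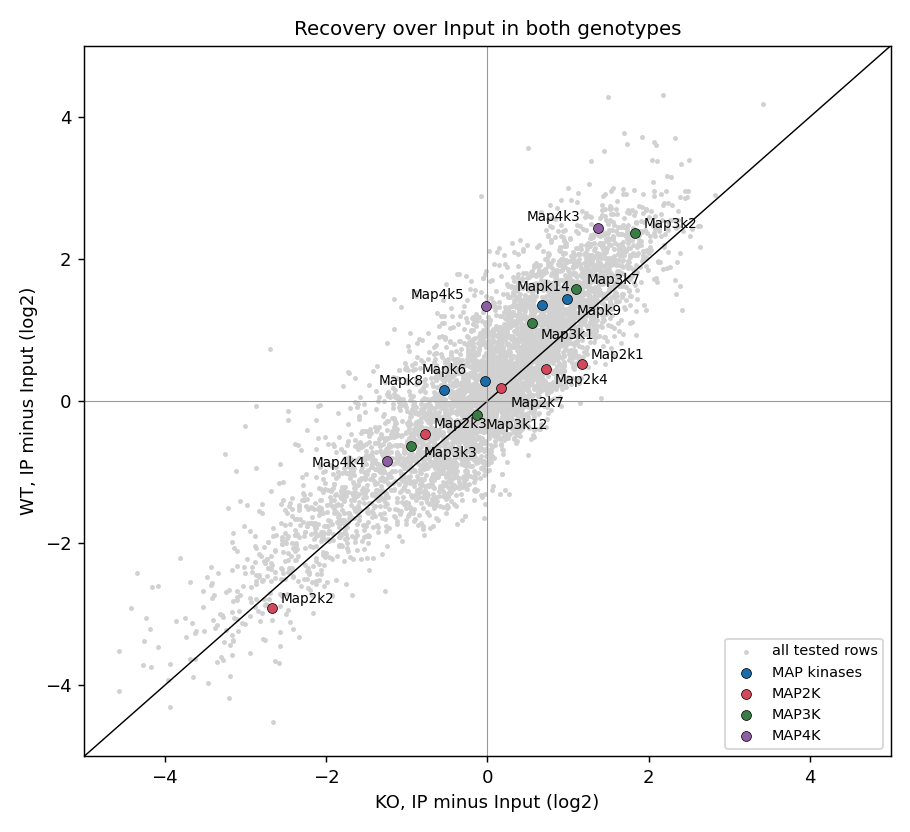
The authors' IP minus Input difference in KO (x axis) and in WT (y axis), both log2, for the 17 tested kinases over all tested rows in grey; the diagonal marks equal recovery. Map3k2 and Map4k3 sit at the upper right and Map2k2 at the lower left, while Map4k5 sits at 1.34 in WT and -0.02 in KO.

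Set directly between genotypes, the immunoprecipitates differed little. In IP the authors' value was higher in WT than in KO for 12 of the 17 members, against 59.7% of all tested rows, with a median of 0.20, against 0.13 over those rows. Map4k5 was the single member with a difference of at least 1, at 1.40, where 6.78% of rows were that much higher and 0.845% that much lower. In Input 15 of 17 members were lower in WT, and Map2k1 and Map4k5, or 11.8% of members, were higher, against 35.6% of all tested rows. The median was -0.13, against -0.09 over those rows. No member reached a difference of 1 in Input, where 0% of rows were that much higher and 0.188% lower. The widest gap in Input was that of Map4k4, at -0.34. The WT and KO comparisons in IP and in Input are parts of the interaction and are no independent support for it.

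The length of the 3' UTR went along with recovery among the kinases as it did in the whole table. Tested members had a median length of 2066 bases, against 554 bases for those that were not tested. The median authors' IP to Input difference in WT was -0.46 over 3 tested members under 1000 bases, 0.29 over 5 members from 1000 to under 2000 bases, and 1.10 over 9 longer members. Over all tested rows these medians were -0.40, 0.22 and 0.79. In KO they were -0.78, -0.03 and 0.67 over the members and -0.20, 0.11 and 0.42 over all tested rows. The members' values in WT overlapped between classes, from -2.91 to 0.52, from -0.85 to 2.43 and from -0.20 to 2.36. The longest class included Map3k2, Mapk8, Map3k7 and Mapk9, and the shortest held Map2k1, Map2k2 and Map2k3 alone. Across the 17 members Spearman's rho between length and the interaction was 0.37, and across all 5327 rows it was 0.39, given as a description of rows that share libraries. Against the running median of all rows at their own length, Map4k5 lay 1.16 above and Map4k3 0.89 above. Map3k2 and Map3k7 lay within 0.01 of it. Map2k4 lay farthest below it, with a difference of -0.67, next to Map2k1 with -0.66.

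**Figure D4:**
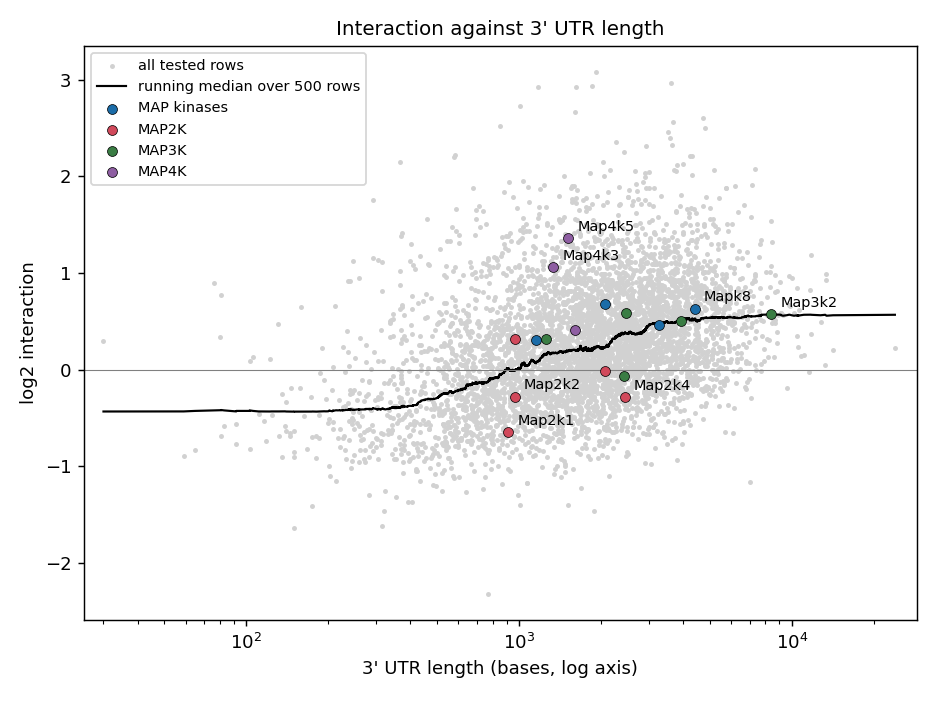
The log2 interaction (y axis) against the length of the 3' UTR in bases (x axis, log scale) for the 17 tested kinases over all tested rows in grey, with the running median of 500 rows as a line. The line climbs with length, Map3k2 at 8403 bases lies on it, and Map4k5 and Map4k3 lie above it.

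Other genes of the pathway were counted in 7 lists of regulators, partners and targets. Of 109 listed genes 78 were tested, 4 passed with a higher recovery in WT and 0 with a lower one by the authors' adjusted p, against 2.25% of all tested rows on the higher side. Their median interaction was 0.36, against 0.23 over all tested rows, of which 65.1% were above 0. At the level of RAS and RAF, 0 of 14 tested genes passed, 12 interactions were above 0 and the median was 0.23. The RAS-like GTPase gene Mras (1.17), the adaptor gene Grb2 (0.71) and the RAS activator gene Sos2 (0.86) came first by p in the authors' deposited table.

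Among the nuclear targets of the cascade 4 of 18 tested genes passed, against 2.25% of all tested rows higher in WT. Of the 18 interactions 17 were above 0, against 65.1% of those rows. Creb1, a transcription factor phosphorylated by kinases downstream of ERK and p38, had authors' values of 10.11 (WT) and 8.44 (KO) in IP, beside Inputs of 8.42 and 8.64. The WT IP alone stood above Input. Its interaction was 1.91 ± 0.38 (SE; adjusted p = 0.00051 by the Wald test) in the authors' deposited table. The ETS factor Elk3 had 1.71 ± 0.42 there (adjusted p = 0.00905), Mef2c, a factor phosphorylated by p38, 1.62 ± 0.48 (adjusted p = 0.0395) and its paralogue Mef2a 1.43 ± 0.43 (adjusted p = 0.0427). Once the median of all tested rows was subtracted, Creb1 alone of the 4 passed (Wald test recomputed). After subtraction of the length trend none did, and the smallest adjusted p was 0.0687, that of Creb1.

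No gene passed in the remaining 5 lists, and the counts above 0 given here stand beside 65.1% of all tested rows. Of 9 tested RAS inhibitors 7 were above 0, led in the authors' deposited table by Spred2 with 1.18 ± 0.43 (SE; adjusted p = 0.147 by the Wald test), Spred1 with 1.01 and Rasal2 with 0.99. Of 10 tested kinases that act in the cascade under other names, Nlk, a kinase related to the MAP kinases, had 1.64 ± 0.54 (SE; adjusted p = 0.0803) in the authors' deposited table, from 6.66 (WT) and 5.08 (KO) in IP beside Inputs of 6.60 and 6.66. Taok1 had 0.98 and Pak2 0.80 there. The 12 tested scaffolds and adaptors had a median of 0.12 in the authors' deposited table, a range from -0.83 for Gadd45g to 1.005, and a smallest adjusted p of 0.148 (Wald test). Of 5 tested kinases that are substrates of MAP kinases 1 was above 0, Rps6ka3 with 1.12 (Wald test, adjusted p = 0.202), while Mapkapk2 had -0.57 and Rps6ka1 -0.54 in the authors' deposited table. The 10 tested phosphatases of the cascade had a median of 0.18, with Dusp7 at 0.76, Dusp6 at 0.55 and Ppm1b at 0.38 there.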

How the data were processed

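One deposited table of 20586 rows was used, each the 3' UTR of an Ensembl transcript on mm10. DESeq2, Bowtie2 2.2.2, Bowtie 0.12.9 and mm10 are named, without roles, in the submitters' processing notes. The sources used here do not state the counting rule, its use of strand or the fate of multiply mapped reads. Per the file headers, the authors deposited log2 group values, a mean normalized count (a signal), a log2 fold change, its SE and Wald score, a p-value and an adjusted p. Group values are 0 where nothing was counted and behave as log2 of a normalized count plus 1. The score equals fold change over SE, and Benjamini-Hochberg adjustment over 5327 rows gives the adjusted p. The direction of the interaction was read from its Spearman correlation of 0.998 with the same difference of group values. The 8 columns named by sequencing index alone could not be paired with samples and were not used, so the authors' Wald test stood in place of the planned edgeR fit. Row coordinates are those of the file. Computation used scipy 1.17.1, pandas 2.3.3 and numpy 2.4.6 in Python 3.11.15, and figures matplotlib 3.10.9. Recomputed Wald tests and the running median (500 rows) were tested on simulated data. Named were all tested members, members fixed by name, up to 3 genes per list by p, and Mef2a, named after its value was seen. The remaining members were added. The values of 1 kinase and 1 listed gene are not reported here; the kinase stays in the counts and ranges of members, and the gene is left out of its list. The members and lists were chosen with earlier results of these data known.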

Additional observations from a re-analysis of the deposited data

How the results depend on the processing

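The count of 0 kinases past the threshold held under 6 alternatives: an adjusted p of 0.10, the median or the length trend subtracted, every row with a p or rows with a mean count of at least 10 in the adjustment, and 1 row per symbol. The smallest adjusted p of a member ran from 0.139 to 0.448 over these (recomputed Wald test), and the median interaction of the tested members was 0.18 with the median subtracted and 0.11 with the length trend subtracted. Over all 40 members it was -0.036, and over 33 with a mean count of at least 10 it was 0.14. For 18 members followed singly, 103 of 104 values kept their direction and their side of the threshold. Much of this was fixed in advance, since the interaction could change only where the median or the length trend was subtracted. The setting of 1 row per symbol kept all 5327 tested rows and repeated the main result. Over all rows, 120 passed in the main setting. That fell to 30 with the median subtracted, 17 with the length trend subtracted, 47 with every row and 59 with a mean count of at least 10. Mapk9 turned from 0.46 to -0.016 with the length trend subtracted. The 4 pathway genes became 6 at an adjusted p of 0.10, against 3.17% of all tested rows higher in WT. They became 1 with the median subtracted and 0 with the length trend subtracted. With every row, or rows with a mean count of at least 10, in the adjustment they became 2. With a size of at least 0.5 in place of 1, members higher in WT in IP went from 1 to 3 and lower from 0 to 1. At that size, members below Input went from 1 to 3 in WT and from 2 to 5 in KO, and members above Input in KO from 4 to 8. With rows of a mean count of at least 10, 1 member was higher and 1 lower in WT Input, where none had been, and 5 lay below Input in WT. With the median subtracted 2 did. These shifts in member counts follow from the settings. A smaller size can only add members, and the lower count minimum adds members that were not tested. The member higher in WT Input was Mapk3 and the lower one Map3k13, both from those added. Subtracting the median brought in Map4k4, at -0.85 before it. What lay behind the falls in rows and pathway genes that passed was not tested. No paired analysis was possible because the library columns carry no replicate number, and for the same reason leaving out each replicate, values within each RIP experiment, edgeR or DESeq2 fits and TMM against size factors were not run. The 23 members below the count filter had standard errors from 0.61 to 5.69, against 0.39 to 0.57 for the tested members.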
